A study of Saccharomyces cerevisiae with 6 samples.

Results

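The genes described here encode the enzymes that attach sugars to secreted and cell wall proteins in Saccharomyces cerevisiae and that build the mannan of the cell wall. They were taken from the array's gene names as every PMT, ALG, MNN, KTR, MNT or OST name followed by digits, together with KRE2, OCH1, WBP1, SWP1, STT3, VAN1, ANP1 and HOC1, which gave 45 of the 6256 genes on the arrays. Protein glycosylation in yeast begins in the endoplasmic reticulum, where the oligosaccharyltransferase moves a preassembled glycan from a dolichol lipid to asparagine (N-glycosylation) and the protein O-mannosyltransferases add mannose to serine or threonine (O-mannosylation). In the Golgi, further mannosyltransferases lengthen the O-linked chains and extend some N-glycans into the long, branched mannan that forms the outer layer of the wall. The mannose comes from GDP-mannose, either directly or through dolichol phosphate mannose.

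The study compared cells lacking MYO1, the type II myosin heavy chain of the cytokinetic ring, with wild type cells on 6 Agilent 2-colour oligonucleotide arrays, each holding 1 mutant and 1 wild type RNA. Arrays 1 to 3 set the myo1Δ strain YJR13 (MATa) against YJR12 (MATα), and arrays 4 to 6 set the myo1Δ strain YJR6 (MATα) against MGD353-46D (MATα). YJR6 was made in MGD353-46D, and both carry trp1-289, ura3-52, leu2-3 with a further leu2 mutation, and his3Δ1. YJR12 and YJR13 are segregants of a cross of YJR6 with BY4741, and both carry trp1, ura3, leu2-3 and his3Δ1. All 4 strains are listed as ADE+ and cycloheximide resistant (cyhR), with ARG+ for YJR12 and ARG for the other 3. Each mutant carries myo1Δ::HIS5+ and neither wild type carries HIS5+. Overnight cultures at 26°C reached an OD600 of 0.5 to 0.8 in complete synthetic medium or in histidine dropout medium, in which the his3 wild types could not have grown. The labels give the dropout medium for YJR6, and the study's text, which names the dropout medium for conditions tied to myo1Δ, can be read the same way for YJR13. Medium and genotype therefore cannot be told apart. On arrays 1 to 3 mating type cannot be told apart from genotype either. The mutant was labelled with Cy5 on arrays 1, 3, 4 and 6 and with Cy3 on arrays 2 and 5. All values below are log2 ratios of myo1Δ over wild type, so that a negative value is a lower level in the mutant.

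MYO1 itself was lower on every array (log2 -2.11, -1.45, -1.69, -3.53, -1.46 and -2.77 on arrays 1 to 6; adjusted p = 0.00466, limma), and its mutant channel was not above the negative controls on 3 of the 6 arrays. Over all genes, array 3 correlated with the others at r = 0.144 to 0.477 and the other arrays with each other at 0.546 to 0.77. The MATa genes STE2, STE6, BAR1, MFA1 and MFA2 were higher in the mutant on arrays 1 to 3 and the MATα genes STE3, MF(ALPHA)1, MF(ALPHA)2 and SAG1 were lower there. On arrays 4 to 6, where both strains are MATα, those 4 MATα genes ranged from -2.18 (MF(ALPHA)1, array 4) to 3.89 (SAG1, array 6). The MATa genes were above 0 on those arrays too, from 0.004 (MFA2, array 5) to 0.84 (STE6, array 6). The stress genes HSP12, HSP26, CTT1 and ALD3 were higher in the mutant on all 6 arrays, with means of 5.19, 4.55, 4.74 and 5.37, and their part in the results on glycosylation genes was not tested. In such bulk RNA a change in some cells of a culture and a smaller change in all cells cannot be told apart.

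Of the 45 glycosylation genes, 10 were down regulated and 1 was up regulated in myo1Δ strains over the 6 arrays at an adjusted p of 0.05 (limma, Benjamini-Hochberg over all genes). The genes that fell were the O-mannosyltransferases PMT1, PMT2, PMT3 and PMT4, the oligosaccharyltransferase subunits STT3 and OST1, the dolichol glucose synthase ALG5, the mannan polymerase subunit MNN11 and the terminal mannosyltransferases MNN1 and MNT2. The gene that rose was MNN4, which promotes the addition of mannosylphosphate to glycans. The 10 lower genes are 22.2% of the 45, against 12.9% of all genes called lower, and the 1 higher gene is 2.22%, against 14.2% of all genes. In both directions together, 24.4% of the 45 and 27.1% of all genes were called. At an adjusted p of 0.01, 4 were lower (8.89%, against 3.96% of all genes) and 1 was higher (2.22%, against 3.47%).

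The median of the 45 genes was -0.30, with 33 of 45 below 0, while the median of all genes was 0.001. On single arrays the median of the 45 was -0.145, -0.386, -0.097, -0.426, -0.240 and -0.303 on arrays 1 to 6, and 26 to 33 of them were below 0. It was thus below 0 on every array and closest to 0 on array 3. A total of 11 of the 45 were lower on all 6 arrays and 2 were higher on all 6, against 13.7% and 14% of all genes.

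**Figure D1:**
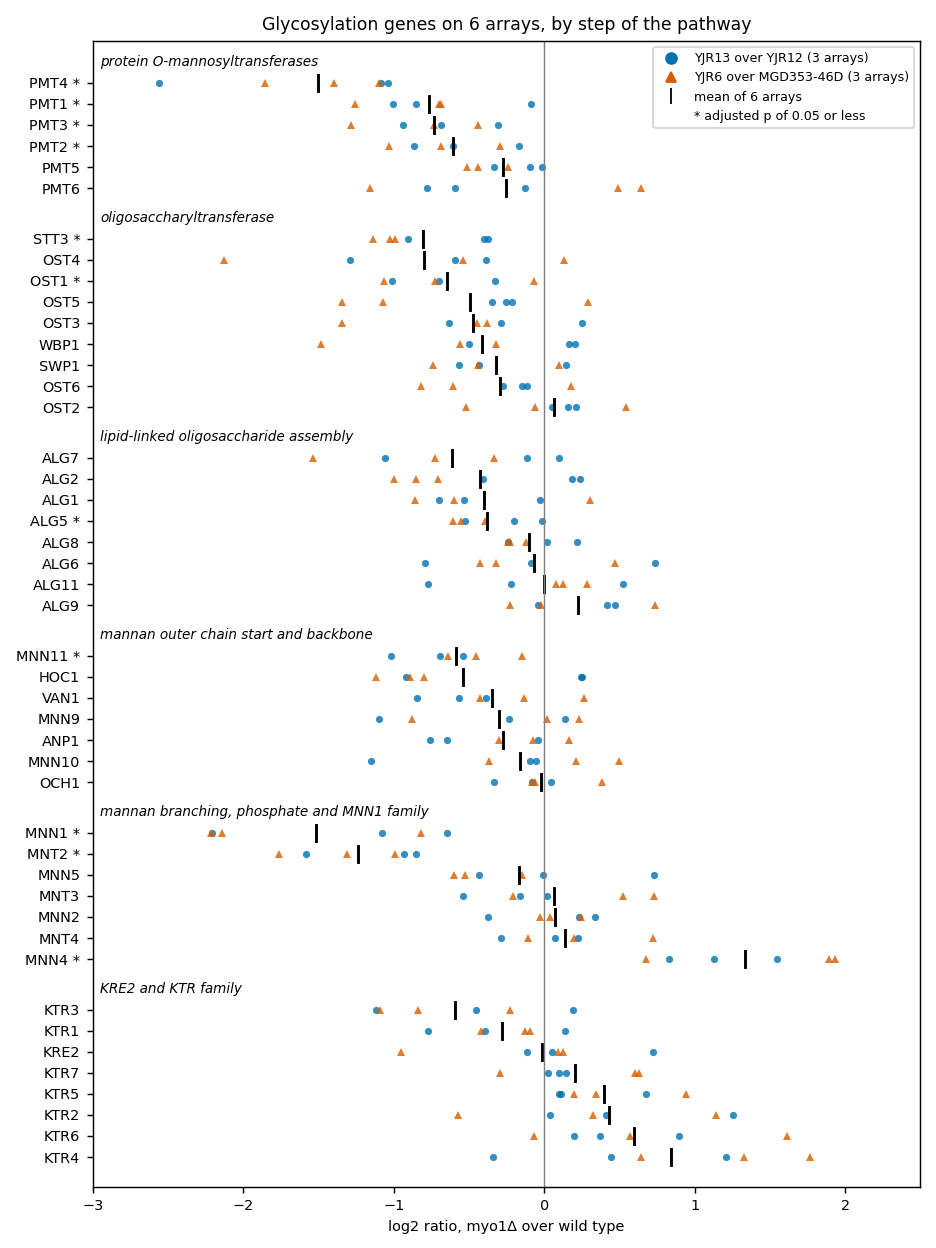
The log2 ratio of myo1Δ over wild type (horizontal axis) of each of the 45 genes, grouped by step of the pathway, with circles for arrays 1 to 3 (YJR13 over YJR12), triangles for arrays 4 to 6 (YJR6 over MGD353-46D) and a bar at the mean. Asterisks mark the 11 genes with an adjusted p of 0.05 or less, of which 10 lie left of 0 and MNN4 lies right of it on all 6 arrays.

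The O-mannosyltransferases had the lowest median of the 6 role groups (-0.67). All 6 PMT genes had means below 0, 5 of them were lower on all 6 arrays, and 4 passed the test (66.7%, against 12.9% of all genes called lower). PMT4, whose product pairs with itself and modifies mainly membrane proteins, measured -1.09, -2.56, -1.04, -1.39, -1.86 and -1.10 on arrays 1 to 6. It was lower on every array, most so on arrays 2 and 5, on which the mutant carried Cy3. Its mean was -1.51 (SE 0.22, adjusted p = 0.00535, limma), a 2.84-fold lower level. The mean was -1.15 over the 4 arrays with the mutant in Cy5 and -2.21 over the 2 with the mutant in Cy3.

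PMT1 and PMT2 encode the partners of the main O-mannosyltransferase complex. PMT1 measured -0.09, -0.85, -1.003, -1.26, -0.68 and -0.70, and fell by 0.76 (SE 0.15, adjusted p = 0.0146). PMT2 measured -0.17, -0.61, -0.87, -1.03, -0.30 and -0.69, and fell by 0.61 (SE 0.14, adjusted p = 0.0198). Both genes were lower on all 6 arrays, nearest to 0 on array 1 and lowest on array 4. PMT3, a close relative of PMT2, measured -0.69, -0.94, -0.31, -1.29, -0.73 and -0.44, and fell by 0.73 (SE 0.14, adjusted p = 0.0128). The call of PMT2 was lost without array 2 (adjusted p = 0.057) and without array 6 (adjusted p = 0.0562), and the calls of the other 3 genes held without any 1 array.

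The remaining 2 PMT genes within the name rule did not pass. PMT5 was lower on all 6 arrays but by little, from -0.02 to -0.52 (mean -0.27, SE 0.10, adjusted p = 0.0836). PMT6 measured -0.59, -0.78, -0.13, 0.64, -1.16 and 0.49 (mean -0.25, SE 0.26, adjusted p = 0.503), so arrays 4 and 6 were on the other side of 0. PMT1 and PMT5 lie next to each other in the genome.

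Of the 9 subunits of the oligosaccharyltransferase, 8 had means below 0 (median -0.47) and 2 fell (22.2%, against 12.9% of all genes). STT3, the catalytic subunit, measured -0.38, -0.91, -0.40, -1.03, -0.99 and -1.14, and its mean was -0.81 (SE 0.14, adjusted p = 0.0087), a 1.75-fold lower level. Arrays 1 and 3 of the YJR13 pair were nearest to 0. OST1, an essential subunit related to mammalian ribophorin I, measured -0.70, -0.33, -1.01, -1.06, -0.07 and -0.73, with a mean of -0.65 (SE 0.15, adjusted p = 0.0225). It was lower on all arrays but close to 0 on array 5. Its call was lost without array 1, 4 or 6 (adjusted p = 0.0594, 0.0603 and 0.0616) and with normalization on the array median (adjusted p = 0.0666).

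The small subunit OST4 had a mean as low as that of STT3 (-0.80) with a wider spread, from -2.13 on array 6 to 0.13 on array 5 (SE 0.28, adjusted p = 0.0743). The subunits OST5, OST3, WBP1, SWP1 and OST6 had means between -0.49 and -0.30, none of which passed (adjusted p from 0.112 to 0.206). OST3 and OST6 encode alternative subunits of the enzyme, and their means were -0.47 and -0.30. OST2, related to mammalian DAD1, had the highest mean of the group (0.06, SE 0.14, adjusted p = 0.776), with values of 0.16, 0.05, 0.21, -0.52, -0.06 and 0.54 that fell on both sides of 0.

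The genes that assemble the lipid-linked oligosaccharide were nearer to 0 (8 genes, median -0.24, 6 below 0), and 1 of them fell. That is 12.5%, near the 12.9% of all genes called lower. ALG5, which makes the dolichol phosphate glucose used for the outermost sugars of this glycan, measured -0.02, -0.53, -0.20, -0.40, -0.60 and -0.55, with a mean of -0.38 (SE 0.11, adjusted p = 0.0397). All 6 values were below 0, but the call was lost without array 2, 4, 5 or 6 (adjusted p from 0.0863 to 0.107), with slide as a block (0.0782), without background correction (0.0592), with normalization on the array median (0.115) and with every flagged spot left out (0.0529). ALG5 was also the dimmest of the 11 called genes, at 1.10 to 1.63 times the local background.

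ALG7, whose product starts the glycan by placing N-acetylglucosamine phosphate on dolichol phosphate, had the lowest mean of the group but varied more, at -1.06, 0.10, -0.11, -0.34, -0.72 and -1.54 (mean -0.61, SE 0.22, adjusted p = 0.0825). ALG2, which adds mannose on the cytoplasmic face, measured -0.41, 0.24, 0.19, -1.001, -0.71 and -0.85 (mean -0.42, adjusted p = 0.149). Its 3 values on arrays 4 to 6 all lay below its 3 values on arrays 1 to 3, and with strain pair as a block it was called lower (adjusted p = 0.0452). ALG9, a mannosyltransferase of the lumenal face, had the highest mean of the group, 0.22 (SE 0.15, adjusted p = 0.303).

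Some genes of this step lie outside the name rule because the array files list them under older or systematic names, and they were looked up after the values above were known. ALG3 (RHK1 on the array) measured a mean of -0.61 (SE 0.17, adjusted p = 0.0345), ALG12 (ECM39 on the array) a mean of -0.47 (SE 0.14, adjusted p = 0.0491) and ALG14 a mean of -0.46 (SE 0.13, adjusted p = 0.0439). ALG3 and ALG12 add mannose to the glycan and ALG14 takes part in adding its N-acetylglucosamine. The call of ALG3 was lost without array 1, 2, 4, 5 or 6 (adjusted p from 0.0589 to 0.0935), that of ALG14 without the same 5 arrays (0.0838 to 0.106) and that of ALG12 without any 1 of the 6 (0.0543 to 0.117). ALG13, the partner of ALG14, measured -0.44 (adjusted p = 0.221) and DIE2, the last glucosyltransferase of the chain, -0.14 (adjusted p = 0.333). Pathway genes of other steps outside the name rule were looked up with them. The protein O-mannosyltransferase PMT7 measured -0.25 (adjusted p = 0.232), while YUR1 had a mean above 0, at 0.19 (adjusted p = 0.4325).

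The genes that start and lengthen the mannan backbone all had means below 0 (7 of 7, median -0.30), and 1 fell. That is 14.3%, near the 12.9% of all genes called lower. OCH1, which adds the mannose that initiates the outer chain, stayed near 0 on all arrays, at -0.08, -0.33, 0.05, -0.06, 0.38 and -0.08 (mean -0.02, SE 0.11, adjusted p = 0.909). MNN11, a subunit of the larger mannan polymerase, measured -1.02, -0.54, -0.69, -0.15, -0.64 and -0.46, with a mean of -0.58 (SE 0.12, adjusted p = 0.0172). It was lower on all 6 arrays, most so on array 1, and its call was lost without array 2 (adjusted p = 0.0504) and with normalization on the array median (adjusted p = 0.0954).

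The other polymerase subunits did not pass. MNN9, which is shared by both mannan polymerases, measured 0.14, -1.10, -0.23, -0.88, 0.23 and 0.02 (mean -0.30, SE 0.21, adjusted p = 0.307). HOC1, a relative of OCH1 in the larger polymerase, measured 0.25, -0.92, 0.25, -0.80, -1.12 and -0.89 (mean -0.54, SE 0.22, adjusted p = 0.117), with arrays 1 and 3 above 0 and the other 4 well below. VAN1, ANP1 and MNN10 had means of -0.35, -0.28 and -0.16 (adjusted p = 0.126, 0.197 and 0.616).

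The genes for branching, phosphate transfer and terminal mannose (7 genes, median 0.06) included both the lowest and the highest mean of the 45. MNN1, the Golgi enzyme that caps mannan side chains and O-glycans with a terminal mannose, measured -0.64, -2.21, -1.08, -2.22, -2.14 and -0.82, with a mean of -1.52 (SE 0.27, adjusted p = 0.00954), a 2.87-fold lower level. Arrays 2, 4 and 5 were more than 1 log2 unit below the other 3, and all 6 were below 0. The mean of MNN1 was -1.19 over the 4 arrays with the mutant in Cy5 and -2.18 over the 2 with the mutant in Cy3. MNT2, a relative of MNN1 that adds terminal mannose to O-glycans, measured -0.85, -1.59, -0.93, -1.76, -0.99 and -1.31, with a mean of -1.24 (SE 0.15, adjusted p = 0.00404), and had the smallest adjusted p of the 45 genes. MNN1 and WBP1 lie close together in the genome, with 1 gene between them, and WBP1 measured a mean of -0.42 (adjusted p = 0.206).

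MNN4 measured 0.83, 1.55, 1.13, 1.89, 0.68 and 1.93, with a mean of 1.33 (SE 0.20, adjusted p = 0.00582), a 2.52-fold higher level. All 6 values were above 0, and the lowest came from array 5 and array 1, each from another strain pair. KTR6, which carries out the transfer of mannosylphosphate, had a mean of 0.60 with values from -0.07 on array 6 to 1.61 on array 4 (SE 0.22, adjusted p = 0.0821). The branching enzymes MNN2 and MNN5 measured means of 0.07 and -0.17, and the MNN1 relatives MNT3 and MNT4 measured 0.06 and 0.14 (adjusted p from 0.509 to 0.832).

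The KRE2 and KTR family, Golgi mannosyltransferases that lengthen O-glycans and N-linked chains, had the highest median of the role groups (8 genes, median 0.30, 3 below 0). None of its members passed the test with limma, and at an unadjusted p of 0.05 KTR4, KTR5 and KTR6 were higher and KTR3 was lower, where 21.6% of all genes were higher and 19.1% lower. KRE2, the main O-chain mannosyltransferase of the family, measured 0.05, -0.11, 0.73, 0.09, -0.95 and 0.12 (mean -0.01, SE 0.20, adjusted p = 0.971). KTR4 had the highest mean, 0.84, from 0.44, 1.21, -0.34, 1.33, 0.65 and 1.76 (SE 0.27, unadjusted p = 0.0158, adjusted p = 0.0555). It was above 0 on 5 arrays and below 0 on array 3, without which it passed (mean 1.08, adjusted p = 0.0145). With all 6 arrays it also passed with array position (adjusted p = 0.0147) or strain pair (0.0444) as a block. It passed too with plain background subtraction (0.0405), with every flagged spot left out (0.036) and among genes above the median intensity (0.0309). KTR4 did not pass under the other alternatives, among them median normalization (mean 0.42, adjusted p = 0.119) and slide as a block (0.102). Nor did it pass without array 1, 2, 4, 5 or 6 (adjusted p from 0.087 to 0.14).

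KTR3, which shares the O-chain step with KRE2, had the lowest mean of the family, -0.59, from -1.12, -0.46, 0.19, -1.09, -0.23 and -0.84 (SE 0.19, unadjusted p = 0.0178, adjusted p = 0.0607). Array 3 was again the exception, and without it KTR3 passed (mean -0.75, adjusted p = 0.021). KTR1 measured -0.28 (adjusted p = 0.156), and KTR7, KTR5 and KTR2 measured 0.20, 0.39 and 0.43 (adjusted p = 0.33, 0.0759 and 0.228). KTR5 was above 0 on all 6 arrays.

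All 45 genes were above the negative controls in all 12 channels, and none of their spots was saturated or marked poor. The signals were nevertheless modest, from 1.07 to 15.1 times the local background. The signals of the 11 called genes before normalization showed the raw difference between the 2 channels of each array, which also holds the overall brightness of each dye. PMT4 read 2.60, 1.83, 2.89, 2.81, 2.59 and 2.02 times background in the mutant channel and 4.98, 4.89, 2.58, 11.7, 4.79 and 9.84 in the wild type channel. The mutant channel was the dimmer of the pair on all arrays but array 3, as it was for MNN1, MNT2 and STT3. For the other lower genes the mutant channel was the brighter before normalization on more arrays, namely arrays 1 and 3 for ALG5, 3 and 5 for PMT3, 1, 3 and 5 for PMT1, and 2, 3 and 5 for PMT2, OST1 and MNN11. On those arrays the lower ratio of these genes appeared with the normalization. MNN4 read 2.06 to 4.61 times background in the mutant channel and 1.23 to 2.44 in the wild type channel, and the mutant channel was the brighter on all 6 arrays.

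**Figure D2:**
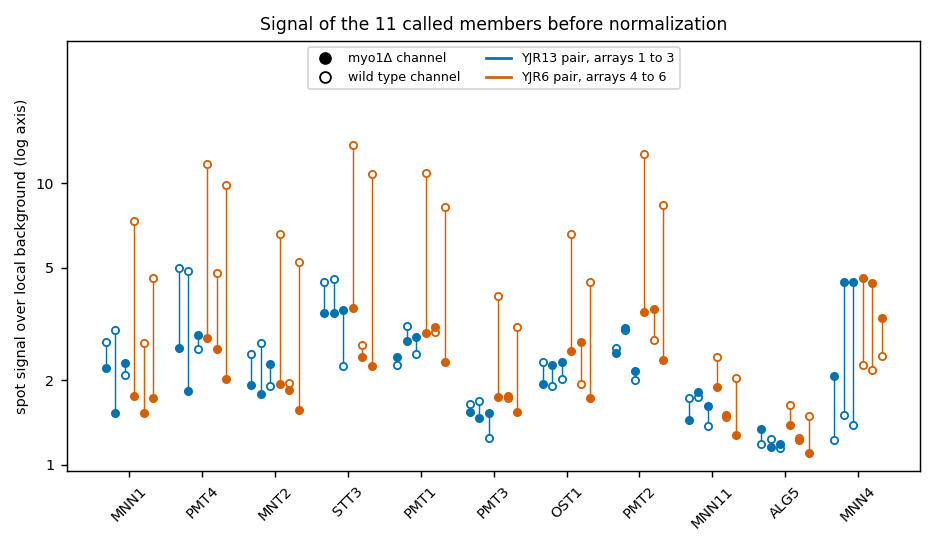
Spot signal over local background (vertical log axis) of the 11 called genes before normalization, with filled circles for the myo1Δ channel and open circles for the wild type channel, joined for each of the 6 arrays (arrays 1 to 6 from left to right within a gene). MNN4 is brighter in the mutant on all 6 arrays, while the order is turned on array 3 for PMT4, where the normalized ratio was -1.04, and on 3 of 6 arrays for PMT1, PMT2, OST1 and MNN11.

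The 2 strain pairs were compared with a model that held 1 coefficient for each pair. The median of the 45 genes was -0.227 on the arrays of YJR13 and -0.360 on those of YJR6. Of the 45, 37 had the same sign in both, and the share of all genes that did was not computed. In the YJR6 pair, PMT1, PMT3, PMT4, STT3, ALG2, MNT2 and MNN1 were called lower (7 of 45, 15.6%, against 8.2% of all genes) and MNN4 was called higher (1 of 45, 2.22%, against 9.94%). These calls were all lost without array 4, without array 6 and with slide as a block, where limma called 0 of the 45 in this pair (16, 16 and 14 at an unadjusted p of 0.05, against 26.5%, 30.2% and 31.4% of all genes). Over all genes 0% were called without array 4 or array 6, and 6.17% with slide as a block. Without array 1 or array 5, 5 of the 45 were called (11.1%, against 9.29% and 15% of all genes). In the YJR13 pair limma called 0 of the 45 in either direction, where 0.671% of all genes were called lower and 0.576% higher. At an unadjusted p of 0.05, 11 of the 45 were lower in this pair (24.4%, against 10.7% of all genes) and 1 was higher (2.22%, against 10.9%). With the arrays scaled to each other, 7 of the 45 passed in this pair (15.6%), near the 13.4% of all genes that did.

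The difference between the pairs passed for 0 of the 45 genes and for 0.0639% of all genes (limma), and 1 of the 45 (2.22%) had an unadjusted p under 0.05, against 7.56% of all genes. That gene was ALG2, one of the pair differences given in full, whose mean was 0.01 on the YJR13 arrays and -0.85 on the YJR6 arrays (difference 0.86, unadjusted p = 0.011, adjusted p = 0.554). HOC1 had the next largest difference in that direction, at -0.14 and -0.94 (difference 0.79, adjusted p = 0.701). In the other direction KTR4 measured 0.44 and 1.25 (difference -0.81, adjusted p = 0.756) and MNT3 measured -0.23 and 0.35 (difference -0.58, adjusted p = 0.735). PMT4 was close in both pairs, at -1.56 and -1.45.

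**Figure D3:**
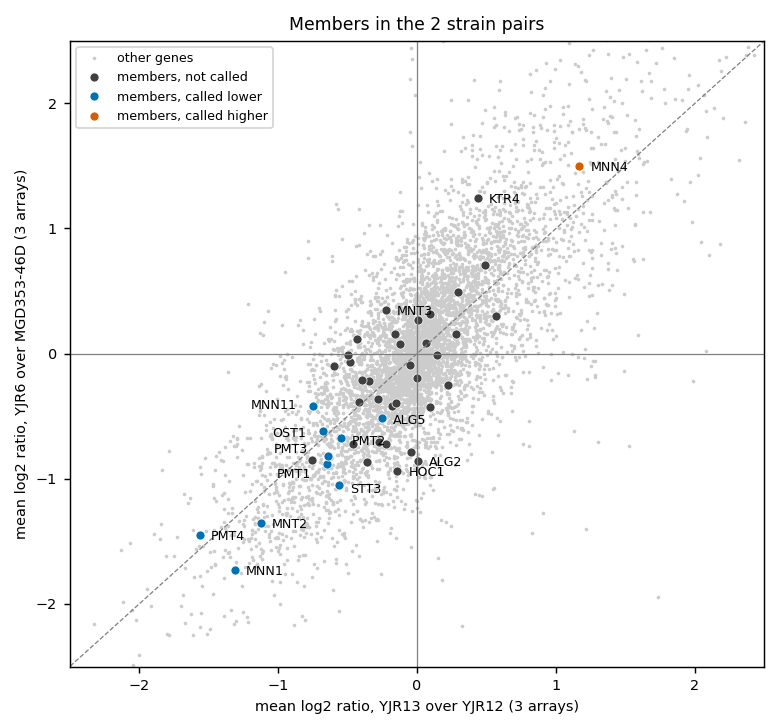
Mean log2 ratio of each gene in the YJR13 pair (horizontal axis, 3 arrays) against the YJR6 pair (vertical axis, 3 arrays), with all other genes in grey, the 45 glycosylation genes as large points coloured by their call over 6 arrays, and a dashed line where both pairs are equal. The 10 genes called lower lie in the lower left and MNN4 in the upper right, and ALG2 and HOC1 lie near 0 in the YJR13 pair and below -0.8 in the YJR6 pair.

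The genes that supply the sugar donors were examined as a list of 17, of which 6 fell (35.3%, against 12.9% of all genes) and 0 rose, where 14.2% of all genes rose (median -0.20, 13 below 0). All 3 enzymes that turn fructose 6-phosphate into GDP-mannose were lower on all 6 arrays. PMI40, mannose 6-phosphate isomerase, measured -1.14, -0.75, -1.17, -1.02, -0.999 and -1.10, with a mean of -1.03 (SE 0.09, adjusted p = 0.00219). SEC53, phosphomannomutase, measured -1.10, -2.07, -0.30, -1.93, -1.97 and -1.14, with a mean of -1.42 (SE 0.25, adjusted p = 0.00955). PSA1, GDP-mannose pyrophosphorylase, measured -0.68, -2.53, -1.46, -1.66, -3.41 and -1.13, with a mean of -1.81 (SE 0.35, adjusted p = 0.0126).

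PMI40 thus varied little between arrays, whereas SEC53 was nearest to 0 on array 3 and PSA1 lowest on array 5. GDA1, the Golgi GDPase that keeps GDP-mannose import running, fell by 0.68 (SE 0.13, adjusted p = 0.0138), and VRG4, the GDP-mannose transporter itself, measured -0.11 (adjusted p = 0.816). On the route to UDP-N-acetylglucosamine, QRI1, the pyrophosphorylase of the last step, fell by 1.30 (SE 0.26, adjusted p = 0.0146) and GNA1 fell by 0.43 (SE 0.12, adjusted p = 0.0352), while GFA1 measured 0.04 and PCM1 -0.41 (adjusted p = 0.885 and 0.145). DPM1, which makes dolichol phosphate mannose, was lower on 4 of the 5 arrays that measured it (mean -1.05, SE 0.38, adjusted p = 0.0893). The calls of PMI40, SEC53, PSA1, GDA1 and QRI1 held without any 1 array. That of GDA1 was lost with normalization on the array median (adjusted p = 0.0572). That of QRI1 was lost where spots were tested singly and the spot with the largest p stood for the gene (0.0573). The calls of PMI40, SEC53 and PSA1 also held under every alternative. That of GNA1 was lost without array 1, 2, 5 or 6 (adjusted p from 0.0736 to 0.0919).

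Downstream of the transfer step, 2 of 10 genes for N-glycan trimming and glycoprotein quality control fell (20%, against 12.9% of all genes) and 1 rose (10%, against 14.2%), with a median of -0.28. The lower genes were CWH41 and ROT2, the glucosidases I and II that remove glucose from the new N-glycan, at -0.88 (SE 0.23, adjusted p = 0.0319) and -0.69 (SE 0.20, adjusted p = 0.0435). The higher gene was YOS9, a lectin of glycoprotein degradation, at 0.52 (SE 0.15, adjusted p = 0.0451). The calls of CWH41 (without array 2, 5 or 6, adjusted p from 0.0551 to 0.0736), ROT2 (without array 1, 2, 4, 5 or 6, 0.0987 to 0.113) and YOS9 (without any 1 array, 0.0533 to 0.116) were lost when an array was left out.

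Among 15 genes of the unfolded protein response and the chaperones of the endoplasmic reticulum, 3 fell (20%, against 12.9% of all genes) and 2 rose (13.3%, against 14.2%), with a median of -0.12. HAC1, the transcription factor of this response, measured 4.47, 3.25, 1.09, -0.15, 3.99 and 4.75 (mean 2.90, SE 0.68, adjusted p = 0.023), with array 4 alone below 0. KAR2, the Hsp70 chaperone of the endoplasmic reticulum, measured 2.24, 0.76, -0.50, 2.93, 2.01 and 3.04 (mean 1.75, SE 0.47, adjusted p = 0.0346), with array 3 alone below 0. The calls were lost without array 1, 2, 5 or 6 for HAC1 (adjusted p from 0.0572 to 0.068) and without array 1, 2, 4, 5 or 6 for KAR2 (0.0608 to 0.0953). That of KAR2 was also lost with slide as a block (0.0698), with a dye effect in the model (0.0678), without background correction (0.0652) and with scaling between arrays (0.0549).

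The lower genes of that list were LHS1 and SIL1, which act on KAR2 as nucleotide exchange factors, and EUG1, a disulfide isomerase. EUG1 fell by 0.87 (adjusted p = 0.0151, lost without array 2 at 0.0507), LHS1 by 0.73 (adjusted p = 0.0207, lost without array 1, 2 or 4 at 0.0559 to 0.0599) and SIL1 by 0.54 (adjusted p = 0.0499, lost without array 1, 2, 4, 5 or 6 at 0.0507 to 0.122). IRE1, the sensor of the response, measured -0.06 (adjusted p = 0.816) and PDI1, the main disulfide isomerase, -0.28 (adjusted p = 0.0954).

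Of 22 genes for the synthesis and transfer of GPI anchors, which also use mannose, 1 fell and 1 rose (4.55% each, against 12.9% and 14.2% of all genes), with a median of -0.15. CWH43, a gene of anchor lipid remodelling, fell by 0.65 (adjusted p = 0.0384), and GPI12, the de-N-acetylase of an early step, rose by 0.94 (adjusted p = 0.0191). The call of GPI12 was lost without array 2 or 4 (adjusted p = 0.0533 and 0.0559) and that of CWH43 without array 1, 2, 4, 5 or 6 (0.0742 to 0.103). Of 13 genes for the vesicle coats between endoplasmic reticulum and Golgi, 4 fell (30.8%, against 12.9% of all genes) and 0 rose, with a median of -0.37. They were SEC12, the exchange factor that starts COPII coats, at -0.65 (adjusted p = 0.0124), the COPI subunit SEC27 at -0.83 (0.021), the COPII GTPase SAR1 at -0.52 (0.046) and the COPII cargo adaptor SEC24 at -0.49 (0.0454). The call of SEC12 held without any 1 array, while those of SEC27 (without array 2 or 6, 0.0653 and 0.0593), SAR1 (without array 1, 2, 4, 5 or 6, 0.0614 to 0.123) and SEC24 (without array 1, 2, 3, 5 or 6, 0.059 to 0.119) did not.

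**Figure D4:**
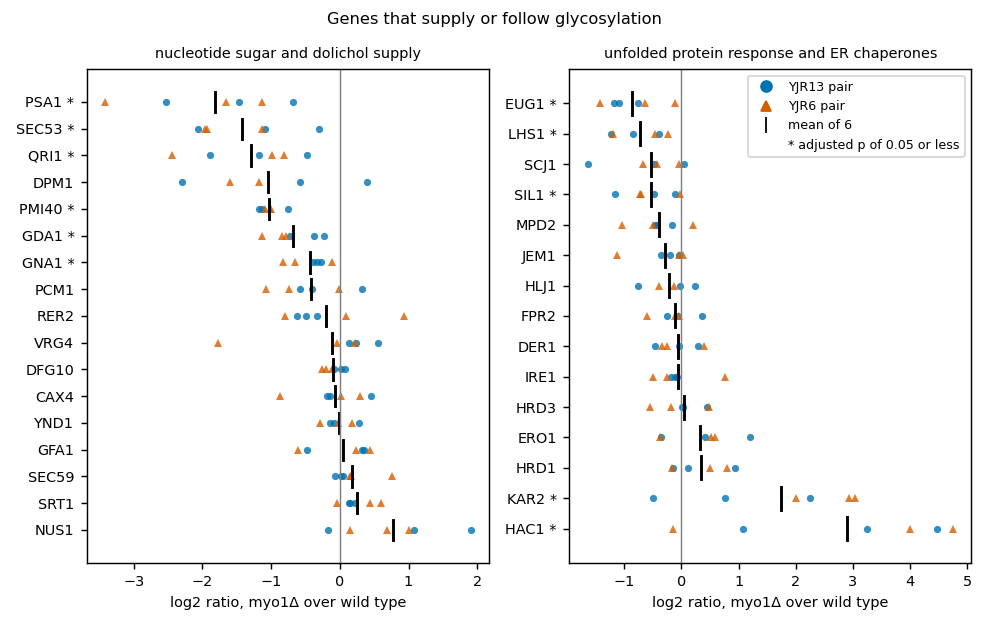
Log2 ratio of myo1Δ over wild type on each array (circles, YJR13 pair; triangles, YJR6 pair; bar, mean of the arrays measured) for 17 genes of nucleotide sugar and dolichol supply and 15 genes of the unfolded protein response and its chaperones, ordered by mean. PSA1, SEC53, QRI1, PMI40, GDA1 and GNA1 (asterisks) lie below 0 on all 6 arrays, and HAC1 and KAR2 lie above 0 on 5 of 6.

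Among the genes outside the 45, slide as a block also ended the calls of ALG3, ALG12, ALG14, ROT2, CWH43, SAR1 and SEC24 (adjusted p from 0.055 to 0.099). A dye effect in the model ended those of ALG3, ALG12, ALG14, CWH41, ROT2, CWH43 and SEC24 (0.0603 to 0.0885), array position as a block those of ALG14, SIL1, ROT2, YOS9, CWH43 and SEC24 (0.0526 to 0.066), and strain pair as a block those of ALG12, ALG14 and SIL1 (0.0572 to 0.0675). Normalization on the array median ended the calls of ALG3, ALG12, ALG14, CWH41, ROT2, CWH43, SEC24 and SAR1 (0.0613 to 0.197). It also ended those of GNA1, GDA1, LHS1 and SIL1 (0.0557 to 0.267). Without background correction the calls of ALG3, ALG14, SIL1, CWH41, ROT2, YOS9, SEC24 and SAR1 were lost (0.0523 to 0.0777). With plain background subtraction the calls of GNA1, ALG14, ROT2, SEC24 and SAR1 were lost (0.0531 to 0.0851). A normexp offset of 0 ended the same calls and that of CWH43 (0.0557 to 0.111). Scaling between arrays ended those of ALG14, ROT2, CWH43 and SAR1 (0.0508 to 0.106). Leaving out every flagged spot ended those of GNA1, ALG12, ALG14 and SEC24 (0.0506 to 0.0596). Where spots were tested singly, EUG1, ALG3, ALG12, ALG14, GNA1, SIL1, ROT2, YOS9, SEC24 and SAR1 were also not called (0.055 to 0.199).

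The calls of MNT2, PMT4, STT3, MNN1, PMT3, PMT1 and MNN4 were present, at an adjusted p of 0.05, under each alternative way of processing the arrays and without each array in turn. The values of each of the 11 called genes kept a single sign across every array. Their means by slide (3 slides) and by mutant dye therefore had to carry that sign too, and were no separate check. The 29 genes with a pair of spots of the same probe were compared within arrays. Their spots differed by a median of 0.10 to 0.80 log2 units, depending on the gene. In the alternative that tests spots singly, the spot with the largest p stands for its gene. There PMT2 (adjusted p = 0.0802) and ALG5 (adjusted p = 0.0777) were not called, which says only that the weaker spot failed.

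**Figure D5:**
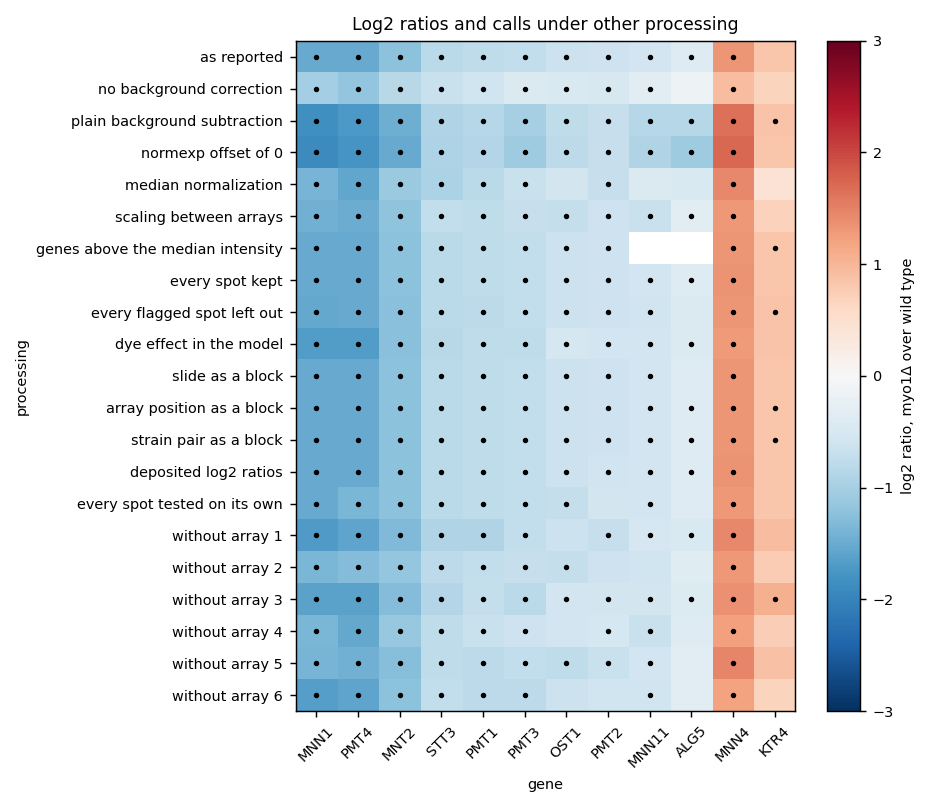
Mean log2 ratio of myo1Δ over wild type (colour) of the 11 called genes and KTR4 (columns) as reported, under each alternative way of processing and without each array in turn, with a dot where the adjusted p was 0.05 or less and white where the gene was left out. The columns of MNN1, PMT4, MNT2, STT3, PMT1, PMT3 and MNN4 carry a dot throughout, and that of ALG5 loses it most often.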

How the data were processed

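RNA of 2 myo1Δ and 2 wild type strains was hybridized by the authors to 6 2-colour Agilent arrays, and the deposited ImaGene files (version 6.0.0 in the file headers) give every spot's mean intensity and its local background's median intensity. RNA came from replicate cultures of each strain per the authors' methods, but the labels do not tie an array to a culture, so p-values measure the spread between arrays. The deposited log2 ratios, Cy5 over Cy3, were recomputed from these intensities to within 4.7e-08, by normexp with an offset of 50 and loess, and served as an alternative.

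With R 4.3.3 and limma 3.58.1, background was corrected by normexp (offset 50) followed by loess on each array, where control spots and spots marked poor (flag 3) had no weight and poor spots then left out. Signs were turned to myo1Δ over wild type, and spots of a gene were averaged (10263 spots, 6256 genes, 6170 with values on all 6 arrays). Names came from the reference table for 5756 genes. A mean over 6 arrays, and a second model with 1 coefficient for each strain pair, were fitted with lmFit and eBayes, with Benjamini-Hochberg adjustment over all genes. SE is limma's moderated standard error. A spot counted as above background over the 95th percentile of the negative controls. Precision is limited by the number of arrays.

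The members and lists were chosen with earlier results of these data known. Values were given in full for the called members, for the 2 largest differences between pairs each way, for the first or main enzymes of each step, and for the lowest and highest mean of each role group. The fitting was tested on simulated data. Alternatives changed the background correction, the normalization, the filters, the blocks (dye, slide, position, strain pair), the threshold and the arrays included.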

Additional observations from a re-analysis of the deposited data

How the results depend on the processing

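Over all 6 arrays, 8 to 14 of the genes were called under every alternative and without each array in turn, against 11 as reported, except that 5 were called at an adjusted p of 0.01. Apart from that threshold, the share of all genes called ran from 13% without array 2 to 42.1% among genes above the median intensity. There 10 of the 32 members tested were called (31.2%). The lowest count (17.8% of the 45) came with median normalization and without array 2 or 6, against 22.8%, 13% and 15% of all genes. The highest came without array 3 (31.1%, against 29.8%). In the YJR13 pair 0 were called as reported. Plain background subtraction called 4 of 45 (9.54% of all genes), a normexp offset of 0 called 3 (11.4%) and scaling between arrays 7 (13.4%). Median normalization called 1 (7.88%), genes brighter than the median 3 of 32 (10.7%) and leaving out every flagged spot 2 (4.62%). Array position as a block called 2 (3.85%) and an unadjusted p of 0.01 called 5 (9%). Without each array in turn, 0 to 1 were called (0.0639% to 3.01%). These shares of the members were near or below those of all genes. In the YJR6 pair, with 8 as reported (18.1% of all genes), no background correction gave 5 (15.4%), scaling 4 (6.14%) and slide as a block 0 (6.17%). Array position as a block gave 4 (10%), every spot on its own 3 (10.5%) and an adjusted p of 0.01 gave 0 (0%). Leaving out an array gave 0 to 8 (0% to 16.7%). The difference between pairs called 0 of the 45 under every alternative. The median of the 45 genes ranged from -0.176 without background correction to -0.428 with a normexp offset of 0, and median normalization moved the median of all genes to -0.057. Means near 0 changed sign. With scaling KRE2 measured 0.0719. Tested singly, the spot with the largest p measured 0.0828 for OCH1, 0.218 for KRE2 and -0.107 for OST2. Those are values of 1 chosen spot and not means of a gene's spots. Leaving out an array gave means from -0.0722 to 0.181 for MNT3, from -0.1015 to 0.0414 for OCH1, from -0.160 to 0.176 for KRE2 and from -0.0313 to 0.180 for OST2. The cause of these shifts was not tested. Every ratio pairs mutant and wild type within its array. Arrays of the 2 strain pairs share no replicate numbers, so beyond the blocks above they were not paired with each other. By construction the offset of 50 draws the ratios of dim spots, such as those of ALG5, toward 0.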
